A study of Caenorhabditis elegans with 6 samples.

Results

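The mir-44 family (mir-44, mir-45, mir-61 and mir-247) and the mir-2 family (mir-2, mir-43 and mir-250) of Caenorhabditis elegans were followed in small RNA libraries from embryos. The 7 genes were chosen by name, 4 in the first family and 3 in the second, out of 260 microRNA genes and 32238 genes in the sense count table. All 7 had counts in every library. Each is given as its share of the summed counts of all microRNA genes in the same library. The embryos were of 2 genotypes, a double mutant, dot-1.1(knu339); ced-3(n1286), and a single mutant, ced-3(n1286), with 3 libraries for each. Both genotypes carry ced-3(n1286), so there are no wild-type embryos in the comparison, and each genotype is 1 strain. The DOT-1.1 protein belongs to the DOT1L family of histone methyltransferases, and the ced-3 gene encodes the main cell death caspase. Set side by side, the genotypes differ by the dot-1.1 allele on a shared ced-3 background. The numbers of replicates 2 and 3 follow the deposited columns and equal the replicate numbers in the sample titles. Short names in brackets in those titles carry other numbers, so the match of replicates 2 and 3 is less certain than that of the genotype.

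MicroRNAs are cut from hairpin transcripts by DRSH-1 with PASH-1 and then by Dicer (DCR-1), and are loaded on the Argonautes ALG-1 and ALG-2. A loaded microRNA finds messenger RNAs mainly through its seed, a short stretch near its 5′ end, and lowers their translation and stability. Members of a family share the seed and can therefore act on the same messages. The mir-44 family promotes the sperm fate in the hermaphrodite germline. In Drosophila, members of the mir-2 family repress genes that start cell death. Mature mir-44 and mir-45 are known to be identical, so a read of the mature form cannot be assigned to either gene. Sequences were not used here, and counts per gene do not tell the 2 arms of a hairpin apart.

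Several of the genes lie in hairpin clusters. In build WBcel235, mir-44 (chromosome II, 11890023 to 11890118, plus strand) lies 15 bases after mir-43 (II, 11889910 to 11890007), which lies 4 bases after mir-42, a member of the mir-35 family. The mir-45 gene (II, 11880944 to 11881039) lies 8983 bases from mir-44 on the opposite strand. The mir-61 gene (V, 11770060 to 11770156, minus strand) and mir-250 (V, 11769917 to 11770015) are 44 bases apart, so this cluster again holds 1 gene of each family. The mir-247 gene (X, 4756971 to 4757068, plus strand) lies 40 bases from mir-797, on the same strand. Whether mir-797 shares the seed of either family was not checked, and it is not counted in either. The mir-2 gene (I, 9372768 to 9372865, minus strand) lies in an intron of ppfr-1, on its strand, and mir-71 lies 7061 bases away in the same gene. On the opposite strand, mir-43 overlaps the non-coding gene ZK930.12 and mir-45 overlaps ZK930.13, and no other member overlaps a gene.

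Sense counts per library ranged from 19529265 to 26409182 in the double mutant and from 19206363 to 22344506 in the single mutant. MicroRNA genes held 72.9%, 79.0% and 89.5% of them in the double mutant (replicates 1, 2 and 3) and 77.8%, 92.4% and 86.7% in the single mutant. The double mutant's replicate 3 and the single mutant's replicate 2 were the richest in microRNA of all 6. The embryonic mir-35 family took 33.7% to 36.7% of microRNA counts in the double mutant and 31.3% to 36.8% in the single mutant. Of the later-stage microRNAs let-7, lin-4, mir-48, mir-84 and mir-241, 5 of 5 had counts in every library. Together they took 0.0202%, 0.0306% and 0.0394% of microRNA counts in the double mutant and 0.0160%, 0.0193% and 0.0240% in the single mutant. All 5 had log2 fold changes above 0 (median 0.56, beside 0.13 over the tested microRNA genes), and 0 passed in edgeR. The rare lin-4, with 35, 84 and 208 counts in the double mutant and 19, 8 and 24 in the single mutant, was called higher by DESeq2 (log2 fold change 3.16, DESeq2 adjusted p = 0.0486). It was 1 of 2 microRNA genes called among 174 that DESeq2 tested. Sense counts over the 6 vit yolk genes, adult intestinal markers, summed to 337, 304 and 284 in the double mutant and 813, 7 and 677 in the single mutant, where vit-1 and vit-2 gave most of them. The other 4, vit-3, vit-4, vit-5 and vit-6, ranged from 12 to 87 counts in the double mutant and from 0 to 17 in the single mutant, and each was higher in every double mutant library. Their log2 fold changes ran from 1.70 to 3.68, while vit-1 and vit-2 went the other way, with -1.42 and -1.70. None of the 6 passed in edgeR, and DESeq2 called vit-5 and vit-6 higher, among 0.186% of the genes it tested that were called in either direction. How many of all sense genes lay apart in the way of these 4 was not counted. The part of adult material in the members' values was not tested.

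The mir-44 family was one of the main microRNA families of these embryos, while the mir-2 family was minor. Per length of the annotated hairpin, all of them 96 to 99 bases, mir-44 ranked 3 of 260 microRNA genes by mean share, mir-45 ranked 7 and mir-61 ranked 12. The remaining ranks were 51 for mir-2, 53 for mir-250, 85 for mir-43 and 110 for mir-247. How reads of the mature form shared by mir-44 and mir-45 were divided is not known, so their ranks are uncertain one by one. On this scale the order within the set was the same in 5 of the 6 libraries, from mir-44 through mir-45, mir-61, mir-2, mir-250 and mir-43 to mir-247. In replicate 2 of the double mutant mir-250 stood above mir-2. By share alone it also did so in the single mutant's replicate 3, by 4076 counts against 4065. The shares of mir-2 and mir-250 overlapped in either genotype, and those of mir-45 and mir-61 overlapped in the double mutant, although mir-45 was the higher of the pair in every library. Other neighbours in the order did not overlap in either genotype.

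**Figure D1:**
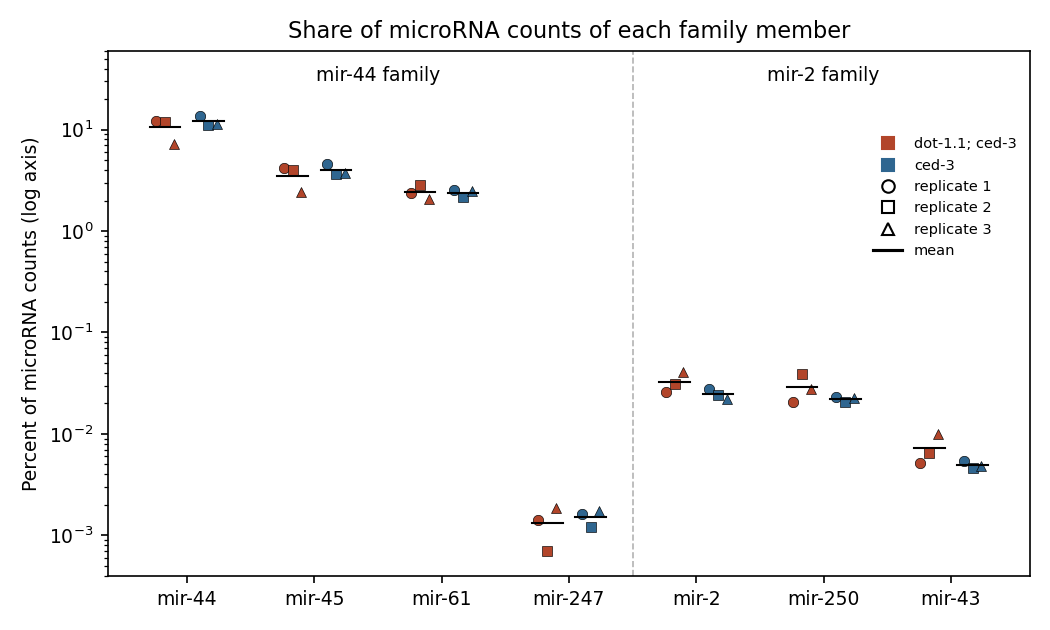
Share of microRNA counts (percent, log axis) of the 7 members in each library, with double mutant libraries left of single mutant libraries for each gene. Symbols mark replicates and short lines the mean of 3 libraries. Every member's values overlap between genotypes, and the families differ in level by orders of magnitude, with mir-247 the exception in the mir-44 family.

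Summed over its 4 genes, the mir-44 family took 18.8%, 18.9% and 11.6% of microRNA counts in the double mutant, against 20.9%, 16.8% and 17.7% in the single mutant. The genotypes overlapped, as did those of each of the 7 members, so that 0 of 7 lay apart, against 10.2% of the 246 microRNA genes with any count. Only the double mutant's replicate 3 lay below the single mutant libraries. Means were 16.4% ± 4.15 in the double mutant and 18.5% ± 2.16 in the single mutant (SD, n = 3 each; two-sided exact permutation p = 0.6, and 0.6 adjusted over the 2 families). With 3 libraries against 3 the smallest p this test can give is 0.1. Without replicate 3 of the double mutant the difference of the means was 0.372 percentage points in place of -2.03. Without both libraries richest in microRNA it was -0.450 percentage points. In these whole-embryo libraries, fewer cells that make a microRNA and less of it per cell cannot be told apart.

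The largest part of the family's counts was assigned to mir-44. Its sense counts were 1762222, 1856865 and 1696465 in the double mutant and 2055116, 2278739 and 2075462 in the single mutant. As a share of microRNA counts these were 12.3%, 12.03% and 7.18% in the double mutant, against 13.8%, 11.0% and 11.4% in the single mutant. The double mutant's replicate 3 was again the low library, and the genotypes overlapped. The means of 10.5% ± 2.88 in the double mutant and 12.1% ± 1.48 in the single mutant (SD, n = 3 each) gave an exact permutation p of 0.6, or 0.817 adjusted over the 7 members.

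For mir-45 the shares were 4.15%, 4.002% and 2.41% in the double mutant and 4.61%, 3.63% and 3.78% in the single mutant (n = 3 each, exact permutation p = 0.6, adjusted 0.817). Its pattern over libraries followed that of mir-44 closely. Of the counts of mir-44 and mir-45 together, mir-45 held 25.22%, 24.96% and 25.11% in the double mutant and 25.09%, 24.74% and 24.88% in the single mutant. The ratio of mir-44 to mir-45 thus stayed between 2.97 and 3.04 in all 6 libraries, while the share of the pair ranged from 9.58% to 18.4% of microRNA counts. The 95% Wilson interval of the mir-45 part, which covers counting error only, ran from 25.16% to 25.27% in the double mutant's replicate 1, and from 24.69% to 24.79% in the single mutant's replicate 2. The sources used here do not say how reads matching both genes were divided, so the 2 genes are uncertain one by one and their sum is the firmer value.

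The values of this pair depend on the denominator. Set against all sense counts in place of microRNA counts, the family took 13.7%, 14.9% and 10.4% in the double mutant and 16.3%, 15.5% and 15.3% in the single mutant. On this scale the genotypes did not overlap, the double mutant being lower (means 13.0% ± 2.32 and 15.7% ± 0.491, SD, n = 3; exact permutation p = 0.1, the smallest possible, and 0.3 adjusted over the 9 values tested). The 2 genes behind it, mir-44 and mir-45, likewise lay apart, with means of 8.30% and 2.78% in the double mutant, against 10.3% and 3.40% in the single mutant. Of 246 microRNA genes with any count, 7 were lower in all double mutant libraries on this scale, which is 2.85%, and shares in either direction did not overlap for 9.35%. Ribosomal RNA genes, which enter this denominator, held 17.6%, 10.5% and 5.22% of sense counts in the double mutant and 11.2%, 2.08% and 4.92% in the single mutant. The part of ribosomal RNA in the difference was not tested.

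**Figure D2:**
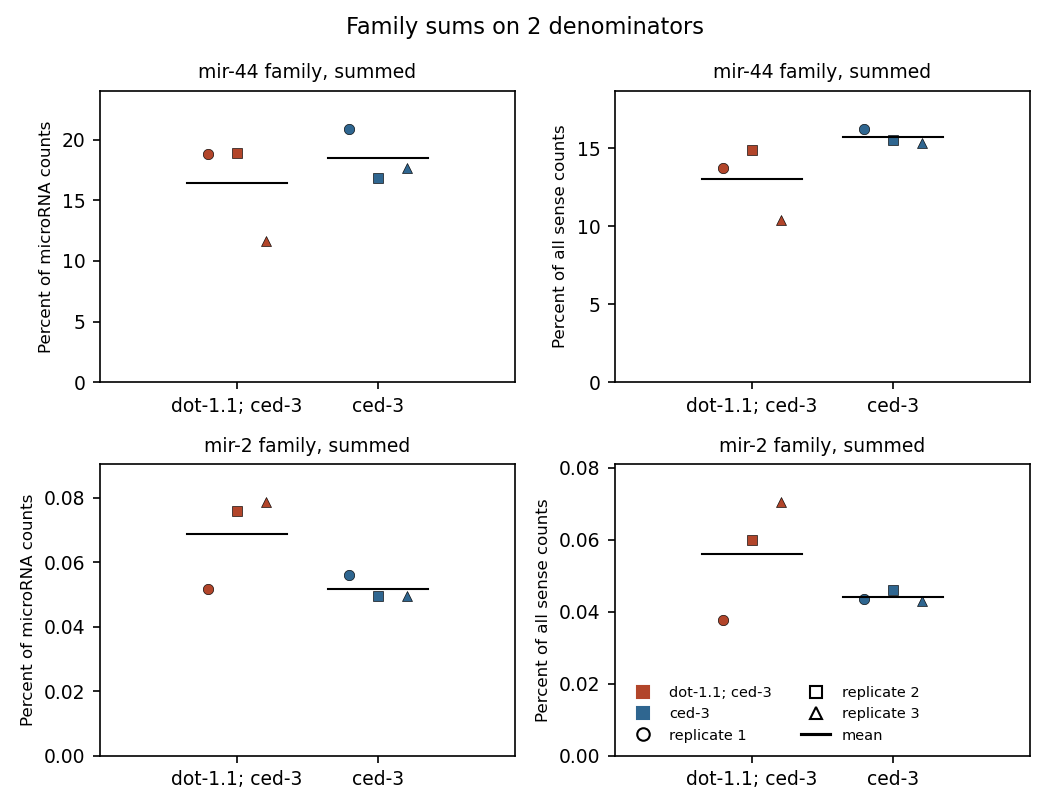
Summed shares of the mir-44 family (top) and the mir-2 family (bottom), as percent of microRNA counts (left) and of all sense counts (right), axes from 0. Points are single libraries, double mutant left of single mutant, and lines are means of 3. The genotypes lie apart only in the top right panel, where double mutant libraries run from 10.4% to 14.9% and single mutant libraries from 15.3% to 16.3%.

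The mir-61 gene, whose product represses vav-1 in vulval precursor cells when LIN-12/Notch is active, held 2.36%, 2.84% and 2.06% of microRNA counts in the double mutant, against 2.55%, 2.16% and 2.50% in the single mutant. The double mutant spanned the single mutant, and the means were 2.42% ± 0.394 in the double mutant and 2.40% ± 0.210 in the single mutant (SD, n = 3 each, exact permutation p = 1). The gene was also lowest in replicate 3 of the double mutant, by less than mir-44 and mir-45 were. Of all mir-44 family counts, mir-61 made up 12.5%, 15.1% and 17.7% in the double mutant and 12.2%, 12.8% and 14.1% in the single mutant. These shares overlapped (n = 3 each, exact permutation p = 0.3, and 1 adjusted over the 7 members).

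The last of the family, mir-247, was rare. It had 203, 108 and 437 sense counts in the double mutant and 240, 251 and 314 in the single mutant. Its shares of 0.00142%, 0.000700% and 0.00185% in the double mutant span those of 0.00161%, 0.00122% and 0.00172% in the single mutant (n = 3 each, exact permutation p = 0.7, adjusted 0.817). The neighbouring mir-797 was rarer, with 25, 16 and 156 counts in the double mutant and 23, 62 and 35 in the single mutant.

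Summed over the 3 genes named for it here, the mir-2 family took 0.0517%, 0.0759% and 0.0787% of microRNA counts in the double mutant. In the single mutant it took 0.0560%, 0.0497% and 0.0495%. Double mutant replicates 2 and 3 lay above all single mutant libraries and replicate 1 lay among them. Means were 0.0688% ± 0.0148 in the double mutant and 0.0517% ± 0.00371 in the single mutant (SD, n = 3 each; exact permutation p = 0.2, adjusted 0.4). The summed share of the 5 later-stage microRNAs given above was likewise lowest in replicate 1 and highest in replicate 3 of the double mutant, and its part in the family's values was not tested.

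Sense counts of mir-2 were 3723, 4742 and 9683 in the double mutant and 4114, 5048 and 4065 in the single mutant. Its shares were 0.0260%, 0.0307% and 0.0410% in the double mutant, against 0.0275%, 0.0245% and 0.0223% in the single mutant (n = 3 each, exact permutation p = 0.2, adjusted 0.7). Replicates 2 and 3 of the double mutant were the highest libraries, and the genotypes overlapped through replicate 1.

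The same libraries were highest for mir-43, which had 739, 999 and 2383 counts in the double mutant and 808, 949 and 872 in the single mutant. Its shares were 0.00516%, 0.00647% and 0.0101% in the double mutant and 0.00541%, 0.00460% and 0.00479% in the single mutant (n = 3 each, exact permutation p = 0.2, adjusted 0.7). Replicate 3 of the double mutant alone stood well above the rest.

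For mir-250 the counts were 2946, 5967 and 6537 in the double mutant and 3444, 4256 and 4076 in the single mutant. The shares were 0.0206%, 0.0387% and 0.0277% in the double mutant and 0.0231%, 0.0206% and 0.0224% in the single mutant (n = 3 each, exact permutation p = 0.4, adjusted 0.817). Here replicate 2 was the highest double mutant library and replicate 1 lay at the lower edge of the single mutant range. In replicate 2 of the double mutant mir-250 made up 51.0% of the family, against 39.8% and 35.1% in replicates 1 and 3 and 41.2%, 41.5% and 45.2% in the single mutant.

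Hairpins that are neighbours in the genome differed widely in level, and their ratios do not depend on how libraries are scaled. The size of a ratio to mir-44 does depend on how reads shared with mir-45 were divided, which is not known. For each 1000 counts of mir-44 there were 0.419, 0.538 and 1.40 counts of mir-43 in the double mutant, against 0.393, 0.416 and 0.420 in the single mutant. The single mutant libraries lay close together, as did replicate 1 of the double mutant, and replicate 3 of the double mutant lay far above. The mean log2 ratio was 0.73 higher in the double mutant, -10.52 ± 0.92 there and -11.25 ± 0.05 in the single mutant (SD, n = 3 each; exact permutation p = 0.2, adjusted 0.4 over the 2 clusters). Without both libraries richest in microRNA the log2 difference was 0.22. For each 1000 counts of mir-42, the third hairpin of this cluster, there were 31.1, 26.9 and 39.3 counts of mir-43 in the double mutant and 29.5, 24.8 and 24.8 in the single mutant. In the same cluster mir-42 had 13.5, 20.0 and 35.7 counts per 1000 of mir-44 in the double mutant and 13.3, 16.77 and 16.97 in the single mutant.

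In the other cluster there were 8.72, 13.6 and 13.4 counts of mir-250 for each 1000 of mir-61 in the double mutant, against 9.06, 9.55 and 8.97 in the single mutant. Again replicate 1 of the double mutant lay with the single mutant libraries, here just below them, and replicates 2 and 3 lay above. The difference of mean log2 ratios was 0.34 (-6.42 ± 0.36 in the double mutant and -6.77 ± 0.05 in the single mutant, SD, n = 3 each, exact permutation p = 0.4, adjusted 0.4).

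Between the families, there were 2.75, 4.02 and 6.76 counts of the mir-2 family for each 1000 of the mir-44 family in the double mutant and 2.68, 2.95 and 2.80 in the single mutant. The log2 ratio of the mir-44 family to the mir-2 family averaged 7.89 ± 0.65 in the double mutant and 8.48 ± 0.07 in the single mutant (SD, n = 3 each, exact permutation p = 0.3), a difference of -0.58. Without replicate 3 of the double mutant the difference was -0.24. For the log2 ratios within both clusters and between the families, the SD over double mutant libraries exceeded that over single mutant libraries.

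**Figure D3:**
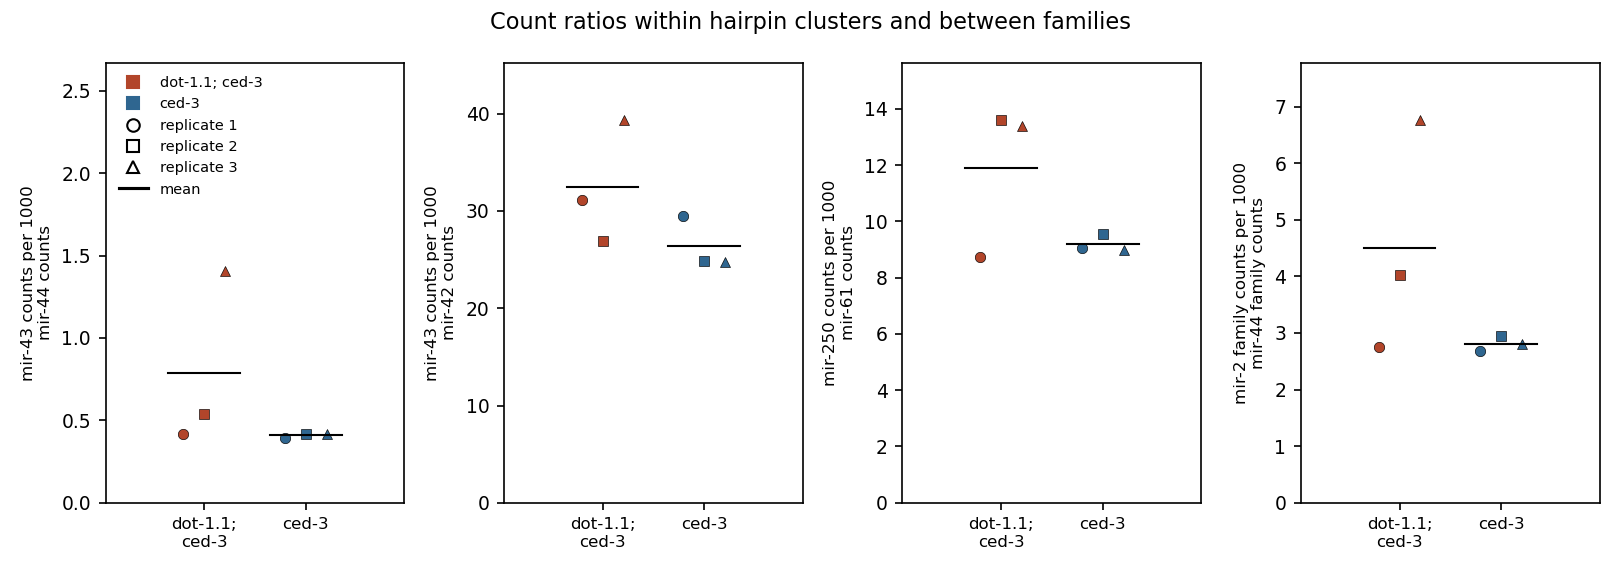
Counts of mir-43 per 1000 counts of mir-44 and of mir-42, of mir-250 per 1000 of mir-61, and of the mir-2 family per 1000 of the mir-44 family, by library, axes from 0, with the double mutant left of the single mutant and lines at means of 3. For mir-43 against mir-44 the single mutant libraries sit between 0.393 and 0.420, while the double mutant reaches 1.40 in replicate 3. Counts of mir-44 depend on how reads shared with mir-45 were divided.

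A wider spread in the double mutant was seen for each member. The SD of the log2 share over 3 libraries was larger in the double mutant for 7 of 7 members, with a median of 0.44 in the double mutant and 0.15 in the single mutant. Among the other 77 microRNA genes with a mean of at least 1000 counts it was larger in the double mutant for 42, with medians of 0.31 and 0.28 in the double and single mutant. The rare mir-247, with 108 to 437 counts per library, lies below that floor and had the largest SD of the members in the double mutant, 0.72. Members share libraries and mir-44 and mir-45 share a mature form, so the 7 are not independent. For mir-44 and mir-45 the wider spread rested on replicate 3. The log2 share of mir-44 was 3.62, 3.59 and 2.84 in the double mutant and 3.78, 3.46 and 3.51 in the single mutant, so that without replicate 3 the double mutant libraries lay closer together than the single mutant ones, as they did for mir-45. The difference in spread was not tested.

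In the fit across all sense genes, edgeR's quasi-likelihood test with libraries scaled by microRNA counts, 0 of 7 members passed. The threshold was an adjusted p under 0.05 over 7723 genes, and 0% of all genes passed, so nothing can be read from the members' count. Unadjusted p fell under 0.05 for 37 genes higher and 19 lower, together 0.725%, and for 5 of 177 tested microRNA genes, or 2.82%, with 0 members among them. DESeq2 called 9 genes higher and 1 lower, or 0.186% of those it tested, with 0 members among them. Log2 fold changes were above 0 for 4 of the 7 members, with a median of 0.01 beside -0.17 over all genes tested. Over the 177 tested microRNA genes the median was higher than that of the members, at 0.13, and it was 0.23 under TMM over all sense genes. In the mir-44 family 1 of 4 was above 0 (median -0.19), against 2 of 4 under TMM over all sense genes, where mir-247 turned to 0.18 (median -0.05). In the mir-2 family 3 of 3 were above 0 under either scaling (medians 0.40 and 0.65).

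By gene, the log2 fold change was -0.20 ± 0.23 (SE) for mir-44 with a 95% interval from -0.69 to 0.29, and -0.19 ± 0.25 for mir-45 with an interval from -0.73 to 0.35. For mir-61 it was 0.01 ± 0.23 (-0.49 to 0.51), turning to -0.08 with library totals as the scale, and for the rare mir-247 it was -0.20 ± 0.74 (-1.80 to 1.40). In the mir-2 family the estimates were 0.39 ± 0.44 for mir-2 (-0.55 to 1.34), 0.55 ± 0.56 for mir-43 (-0.65 to 1.76) and 0.40 ± 0.46 for mir-250 (-0.59 to 1.38). The edgeR adjusted p was 0.999 for each. With each family summed as a single feature the estimates were -0.17 ± 0.21 for the mir-44 family and 0.41 ± 0.40 for the mir-2 family (edgeR adjusted p = 0.999 for both). For mir-44, mir-45 and mir-61 the interval leaves out a change of 2-fold in either direction under this scaling. For mir-247 and the mir-2 family genes it does not, nor for any of the 7 under TMM over all sense genes or with DESeq2. The DESeq2 intervals ran from -1.27 to 0.79 for mir-44, from -1.24 to 0.80 for mir-45 and from -1.04 to 1.16 for mir-61.

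**Figure D4:**
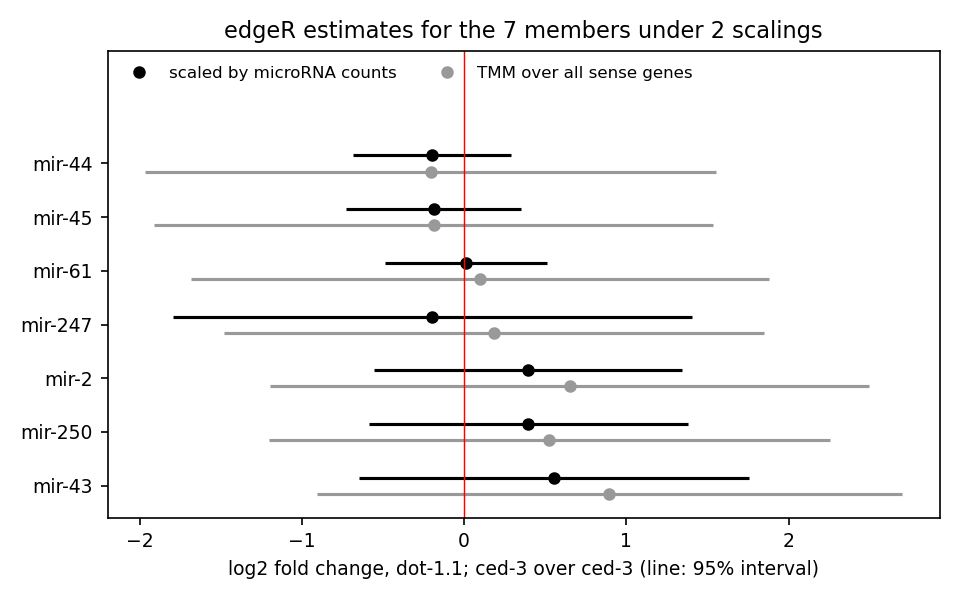
Log2 fold change (double mutant over single mutant) of the 7 members from edgeR, with 95% intervals as lines, scaled by microRNA counts (black) or by TMM over all sense genes (grey). Every interval spans 0, and for mir-44 it narrows to -0.69 to 0.29 under microRNA scaling, while under TMM it widens, with an SE of 0.79.

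The microRNAs most like each family were sought by the root mean square difference of log2 shares over the 6 libraries, each centred on its own mean, among 77 microRNA genes. Closest to the mir-44 family were mir-87 (0.17), mir-243 (0.18) and mir-229 (0.18), against a median of 0.44 over all 77. A microRNA with the same share in every library would score 0.27 here, so the likeness of these 3 is modest. The mir-2 family was followed more closely, by mir-58.1 (0.08), a counterpart of Drosophila bantam, by mir-42 (0.12) and by mir-242 (0.13). For this family the median was 0.39, and an even share would score 0.28. The shares of mir-58.1 were 3.95%, 5.39% and 6.74% in the double mutant and 4.16%, 3.70% and 3.66% in the single mutant, with double mutant replicates 2 and 3 the highest, as in the mir-2 family. All values come from the same 6 libraries and the same microRNA totals.

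Antisense counts at the members were few. They came to 8 over all libraries for mir-44, 20 for mir-45, 3 for mir-247, 1 for mir-2 and 10 for mir-43. Only the genes of the cluster on chromosome V had more, with 153 for mir-61 and 88 for mir-250, which is 0.00601% and 0.322% of their counts on both strands. Neither overlaps an annotated gene.

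At mir-250 the antisense counts were 1, 9 and 7 in the double mutant, against 20, 22 and 29 in the single mutant. Every double mutant library was lower than every single mutant library, also per microRNA counts, and of the 7388 antisense genes tested 171, or 2.31%, were lower in this way (3.94% did not overlap in either direction). In edgeR the log2 fold change was -2.04 ± 0.70 (SE) with an unadjusted p of 0.0112 and an adjusted p of 0.9999, so it did not pass. After adjustment 0% of antisense genes passed, while unadjusted p fell under 0.05 for 51 genes higher and 32 lower, or 1.12%. At mir-61 the antisense counts were 23, 18 and 11 in the double mutant and 22, 33 and 46 in the single mutant, which overlap (-0.81 ± 0.61, edgeR adjusted p = 0.9999). The pair was singled out after its values were seen. Sense shares of mir-250 did not move the same way, as given above. For the overlapping ZK930.13, antisense counts equalled the sense counts of mir-45 in each library, 3905162 in all, so a read can be counted in both tables.

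**Figure D5:**
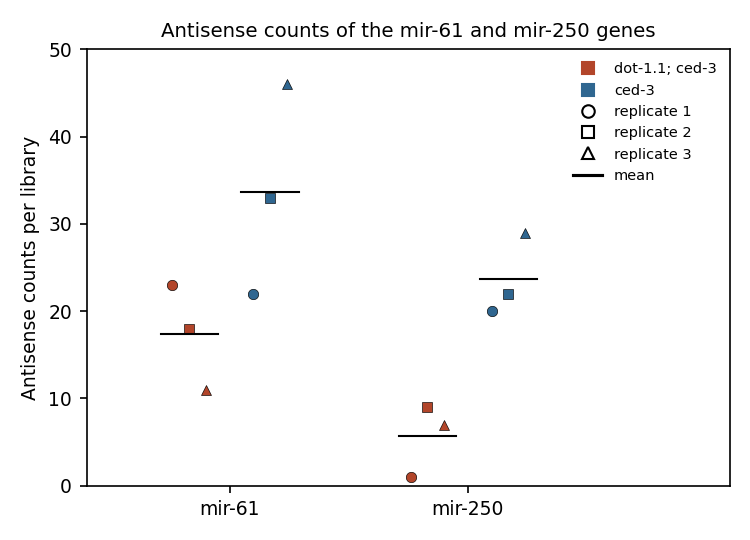
Antisense counts per library at mir-61 and mir-250, axis from 0, double mutant left of single mutant, lines at means of 3. At mir-250 the double mutant libraries hold 1 to 9 counts and the single mutant libraries 20 to 29, whereas at mir-61 the genotypes overlap.

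Genes of the microRNA pathway were read from the same fits, where counts over a protein-coding gene are fragments or small RNAs and do not measure its messenger RNA. Of 14 genes for microRNA processing and silencing, 12 were tested for sense counts, and with edgeR 0 were higher and 0 lower (median log2 fold change -0.31, beside -0.17 for all genes). For antisense counts 12 were tested, again with 0 higher and 0 lower (median -0.04, beside 0.08). Of the mir-35 family, which shares a cluster with mir-43 and mir-44 through mir-42, 8 of 8 were tested, with 0 higher and 0 lower. Their median was 0.10, beside 0.13 over all tested microRNA genes. The estimate for mir-42 was 0.24 ± 0.33. The host gene ppfr-1, a protein phosphatase regulatory subunit, had -0.26 ± 0.79 for sense counts and 0.14 ± 0.59 for antisense counts. For vav-1, the mir-61 target, the values were -0.14 ± 0.89 for sense (0.36 ± 0.54 under TMM) and -0.95 ± 0.87 for antisense, with edgeR adjusted p of 0.999 and 0.9999. For mir-71, the neighbour of mir-2, the sense estimate was -0.04 ± 0.37, and there were 33.2, 41.9 and 138 counts of mir-2 per 1000 of mir-71 in the double mutant, against 46.3, 30.6 and 47.8 in the single mutant.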

How the data were processed

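Per the labels' protocols, embryos were taken with hypochlorite from synchronised adults grown on plates, total RNA was extracted and small inserts were sequenced as single reads. The authors deposited 2 tables of raw read counts per gene, one named antisense and the other taken as sense. The genome build is WBcel235, per the submitters' processing notes. Which aligner and counter were used is not given in the sources read for this work. Columns were matched by genotype and replicate number. Bracketed short names in the titles of replicates 2 and 3 carry other numbers than the columns.

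MicroRNA genes were those classed so by RefSeq for WBcel235, where 31418 genes matched. Positions are those of the Ensembl annotation for this build and equalled RefSeq's for the genes given. The unit of the text is the percent of a library's microRNA counts, of which there were 14324396 to 23637864 per library.

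Both tables were tested with edgeR 4.0.16 (R 4.3.3) after its filter on low counts, with library size set to microRNA counts. Here TMM factors over all sense genes ran from 0.533 to 1.95, and TMM was kept as an alternative. Adjusted p is Benjamini-Hochberg over all genes tested. SE is the log2 fold change divided by the square root of F, and intervals use the test's degrees of freedom. Shares and ratios were compared by two-sided exact permutation tests. DESeq2 1.42.0, other scalings and denominators, a replicate block and left-out libraries were tried. Each p-value reflects the spread of these 6 libraries, which may be technical in part.

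The edgeR procedure was tested on simulated counts drawn at the real means and dispersions. Among microRNA genes it recovered 0 of 20 changed by 2-fold, 1 of 20 by 4-fold and 4 of 19 by 8-fold, with 0 false calls among 6803 genes. At a dispersion of 0.05 it recovered 10, 20 and 20 of 20, with 4 false calls among 7256 genes.

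The members, lists and tests were chosen with earlier results of these data known. The text names the members, their host and neighbours within 10 kb, and the 3 microRNAs most like each family. A search for other genes with the same seed, part of that rule, needs sequences and was not made.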

Additional observations from a re-analysis of the deposited data

How the results depend on the processing

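The count of members past the threshold was 0 under every scaling, tool and left-out library tried. Over all sense genes, 0 higher and 0 lower became 2 higher with no filter on low counts, 9 higher and 1 lower with DESeq2, and 8 higher and 5 lower without both libraries richest in microRNA. Leaving out single libraries gave 0 to 2 higher and 0 to 9 lower. The cause was not tested. The median log2 fold change of all genes was -0.17 with microRNA scaling, 0.01 with TMM, -0.27 with library totals and -0.30 with TMM over microRNA genes.

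The direction turned for several members, none of which passed. The log2 fold change of mir-61 was -0.0784 with library totals and -0.11 with TMM over microRNA genes, and its share of all sense counts differed by -0.108 percentage points. That of mir-247 was 0.18 with TMM and 0.13 with DESeq2. For neighbours, mir-797 had -0.32 and mir-71 0.51 without both libraries richest in microRNA, and mir-71 had 0.0066 when the mir-35 family was left out of the scale. Without those libraries the share of its family differed by -0.00310 points for mir-247, -0.412 for mir-43 and 2.17 for mir-250. The mir-2 family's share difference stayed above 0 under each alternative, against 0.0170 points with all libraries, but was 0.0110 without those libraries.

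With single libraries left out, the difference ranged from 0.0121 to 0.0256 points for the mir-2 family, from 0.00358 to 0.0111 for mir-2, from 0.000884 to 0.00334 for mir-43, from 0.00209 to 0.0111 for mir-250, and from -3.24 to 0.372 points for the mir-44 family, from -2.46 to 0.1005 for mir-44, from -0.800 to 0.0708 for mir-45, from -3.26 to 0.171 for their sum, from -0.189 to 0.201 for mir-61 and from -0.000457 to 0.000117 for mir-247. For the share of its family it ranged from -0.00260 to 0.00348 for mir-247, from -2.46 to 3.32 for mir-2, from -0.275 to 1.86 for mir-43 and from -5.18 to 2.73 for mir-250. Log2 fold changes ranged from 0.19 to 0.53 for mir-2, from 0.24 to 0.75 for mir-43, from 0.13 to 0.59 for mir-250, from -0.33 to 0.0120 for mir-44, from -0.32 to 0.0253 for mir-45, from -0.12 to 0.12 for mir-61, from -0.52 to 0.11 for mir-247, from -0.63 to 0.95 for mir-797 and from -0.27 to 0.29 for mir-71. The double mutant's replicate 3 was the library without which mir-44 and mir-45 turned and mir-2 and mir-43 had their lowest values. For mir-250 that was its replicate 2. The antisense estimate for mir-250 ranged from -2.73 to -1.61.

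Same-numbered libraries correlated at 0.63, 0.07 and -0.07 over 7723 genes, after each genotype was centred on its own mean. The value for replicate 1 was the highest of any pair, and those for replicates 2 and 3 were near 0. Bracketed short names in the titles carry the same numbers in both genotypes. Whether libraries were prepared in pairs is not settled by these values. The double mutant's replicate 3 correlated at 0.52 with the single mutant's replicate 2. These were the richest in microRNA of their genotypes (89.5% and 92.4% of sense counts). Replicate 1 was the poorest in either genotype (72.9% in the double and 77.8% in the single mutant). The correlations used microRNA scaling, and the part of microRNA richness in them was not tested. A replicate block gave mir-44 a log2 fold change of -0.23 and called 0 genes, and turned no member's direction. Depth limits mir-247 most, with 108 counts in its lowest library.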
